A study of Mus musculus with 2 samples.

Results

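Imprinted genes were examined in single cells of the mouse dorsal telencephalon at embryonic day 14.5. The 10 genes were chosen by name from the 32285 genes of the deposited tables: the long non-coding RNAs Meg3, Rian and Mirg and the protein-coding Dlk1 from the Dlk1-Dio3 domain, Igf2 and the non-coding H19 from their shared domain, and Peg3, Ndn, Grb10 and Plagl1. The rule is a list of names, and all 10 genes had UMIs (unique molecular identifiers, each standing for a captured RNA molecule) in both libraries.

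The study addressed DNMT1 and the migration of cortical interneurons, and these libraries are the wild-type controls of an Eomes-Cre mouse line. Tissue labelled brain hemispheres, genotype WT, line EomesDot, was dissected as dorsal telencephalon, dissociated with papain and captured on the 10x Genomics 3′ platform. There were 2 libraries, called replicate 2 and replicate 4 after the last number of their labels; no mutant and no treatment was compared here, and the labels do not say whether a library came from 1 embryo or from a pool. The groups compared are therefore cell classes within these 2 libraries, and each pair of values below gives replicate 2 and then replicate 4.

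Genomic imprinting is the expression of a gene mainly from the copy inherited from a particular parent, and it is set by DNA methylation that one germline lays down at control regions and that DNMT1 maintains through cell division. Many imprinted genes act on fetal growth: paternally expressed genes such as Igf2 tend to promote it, and maternally expressed genes such as H19 tend to restrain it. In the brain, Grb10 is known to switch its parental copy between dividing cells and neurons. UMIs in these tables are not assigned to a parental copy, so all values are total RNA of both copies.

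The sequences of the start regions of Meg3, Grb10 and Plagl1 are shown because these 3 genes gave the contrasts that the results turn on. RefSeq start windows of 300 bases (250 before the start and 50 after it, build GRCm38.p6, the patch release of mm10) were at hand for 9 of the 10 genes, with 14 windows in all. H19 had none. Capitals mark every match, on either strand, to TGCCGC, the core that the imprint-protecting zinc finger protein ZFP57 is known to bind in methylated form, to TGACGTCA, the cyclic AMP response element, or to TATAAA, the TATA box. The windows read 5′ to 3′ on the gene's strand.
Meg3, chr12:109540746-109541045, plus strand: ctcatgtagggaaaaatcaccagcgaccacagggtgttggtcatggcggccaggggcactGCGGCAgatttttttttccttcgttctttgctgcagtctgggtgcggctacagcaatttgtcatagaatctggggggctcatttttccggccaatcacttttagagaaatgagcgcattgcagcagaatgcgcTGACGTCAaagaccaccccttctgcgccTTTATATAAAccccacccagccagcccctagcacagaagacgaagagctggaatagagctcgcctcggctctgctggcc
Grb10, chr11:12037371-12037670, minus strand: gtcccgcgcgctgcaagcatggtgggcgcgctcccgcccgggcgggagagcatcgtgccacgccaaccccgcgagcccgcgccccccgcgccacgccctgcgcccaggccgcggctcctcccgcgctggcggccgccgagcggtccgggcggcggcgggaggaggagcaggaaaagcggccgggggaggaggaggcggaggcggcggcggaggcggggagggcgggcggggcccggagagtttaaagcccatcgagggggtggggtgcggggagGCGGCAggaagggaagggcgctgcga
Plagl1, chr10:13090582-13090881, plus strand: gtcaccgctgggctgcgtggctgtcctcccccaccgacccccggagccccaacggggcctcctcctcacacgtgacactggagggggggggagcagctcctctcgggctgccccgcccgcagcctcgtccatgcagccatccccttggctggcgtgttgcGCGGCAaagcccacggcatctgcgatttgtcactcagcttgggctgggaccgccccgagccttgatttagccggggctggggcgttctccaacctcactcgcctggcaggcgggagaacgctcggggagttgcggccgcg
The Meg3 window held 1 match to TGCCGC, 1 to TGACGTCA and 2 overlapping matches to TATAAA, while the Grb10 and Plagl1 windows held 1 match to TGCCGC each. Over all 32851 windows, 11.6% held TGCCGC, 1.79% held TGACGTCA and 13.6% held TATAAA. Among the 14 windows of the imprinted genes the numbers were 4, 2 and 1. A match is a string of letters and not a measured binding site.

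The windows differed in their CpG dinucleotides, the bases at which imprints are written. The median over all windows was 7 CpG, with quartiles of 3 and 20. The first Grb10 window held 45 and the Plagl1 window 26, both above the upper quartile, whereas the first Meg3 window held 13. Peg3 held 13, Ndn 11, Mirg 10, Dlk1 9 and Rian 0. The 4 windows of Igf2 held 2, 14, 24 and 7, the third above the upper quartile. The second windows of Grb10 and Meg3 held 9 and 1.

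Of the genes, 5 also carry microRNA hairpins, and 1 mature sequence of each is printed because it shows what these RNAs encode. Capitals mark the seed, bases 2 to 8, which pairs with target RNAs. The 3′ libraries capture polyadenylated RNA, so the microRNAs themselves were not measured.
mmu-miR-770-3p, in Meg3: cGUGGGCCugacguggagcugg
mmu-miR-370-3p, in Rian: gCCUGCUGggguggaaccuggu
mmu-miR-410-3p, in Mirg: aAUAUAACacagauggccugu
mmu-miR-675-5p, in H19: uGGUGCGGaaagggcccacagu
mmu-miR-483-3p, in Igf2: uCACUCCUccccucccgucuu
No seed was shared among these 5. RefSeq placed 1 hairpin in Meg3, 3 in Rian and 10 in Mirg, all on the plus strand of chromosome 12. A further 15 lay between Meg3 and Rian and 28 between Rian and Mirg, which makes 57 over 208 kb, 54 of them on the plus strand.

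Meg3 lies at chr12:109540996-109571729, Rian at chr12:109603945-109661716, Mirg at chr12:109734981-109749458 and Dlk1 upstream of them at chr12:109452485-109463336. Igf2 (chr7:142650768-142666816) and H19 (chr7:142575530-142578146) are neighbours. Peg3 lies at chr7:6703892-6730462, Ndn at chr7:62348277-62349928, Grb10 at chr11:11930499-12037428 and Plagl1 at chr10:13090832-13131694, all in build GRCm38.p6.

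The libraries held 1712 and 2589 barcodes with 40267872 and 49422007 UMIs, of which 1199 and 1923 cells were kept, with medians of 30810 and 22826 UMIs a cell. Only 3 barcodes occurred in both libraries, and 1 of them was a kept cell. Cells were clustered without the imprinted genes and named from marker lists, with 120 and 127 cells left unnamed. Those include 51 and 78 cells that raised 14 of 14 RGC markers but were led by the hem or choroid plexus markers Ttr and Rspo3, and 35 and 31 shallow cells (median 5510 UMIs) that raised 10 of 14 RGC markers with none among their leading genes. Neither cluster entered the RGC-like values; Peg3 stood at 159 and 98.6 CPM in the first and 141 and 89.7 CPM in the second, and Plagl1 at 97.6 and 116 CPM and at 348 and 319.6 CPM. Radial glial cell (RGC)-like cells, the neural stem cells of the cortex, numbered 224 and 373, intermediate progenitor cell (IPC)-like cells 154 and 236, and excitatory neuron-like cells 552 and 848. Interneuron-like cells of the medial ganglionic eminence (MGE) numbered 54 and 82, Cajal-Retzius-like cells 16 and 24, and meningeal fibroblast-like cells 20 and 31. Endothelial-like (9 and 18) and mural-like (3 and 9) cells were joined with the meningeal cells for the test, as a meningeal and vascular class of 32 and 58 cells. Marker lists were highest in the class they name for RGC, excitatory, MGE and meningeal cells. The RGC list summed to 6898 and 6166 counts per 1000000 UMIs (CPM) in RGC-like cells, the MGE list to 11517 and 11498 in MGE interneuron-like cells, and the 12 meningeal markers to 4816 and 7449.9 in meningeal cells but 0 and 0 in MGE interneuron-like cells. The IPC list summed to 2930.2 and 2884 CPM in IPC-like cells, against 355 and 304 CPM in RGC-like cells. In excitatory neuron-like cells it summed to 386 and 460 CPM. IPC-like cells were intermediate in the excitatory list, at 5437 and 6844 CPM against 12936 and 13242 CPM in excitatory neuron-like cells. The Neurod1 cluster of IPC-like cells raised 8 of 10 IPC and 8 of 12 excitatory markers. The endothelial-like cells of replicate 4 also held 45563 CPM of the 9 erythroid markers, against 91.9 in replicate 2, so the sums of those cells include red-cell RNA.

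Levels are CPM, a gene's UMIs per 1000000 UMIs of all cells of a class in a library, and differences are log2 fold changes ± standard error from edgeR's quasi-likelihood test over 14482 genes, with Benjamini-Hochberg adjusted p over all of them. Calls were made where that adjusted p was under 0.05. With 2 libraries, and no label saying whether they are separate animals, p-values measure only the spread between these sums. Intervals given for single values are 95% and cover counting error only.

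**Figure D1:**
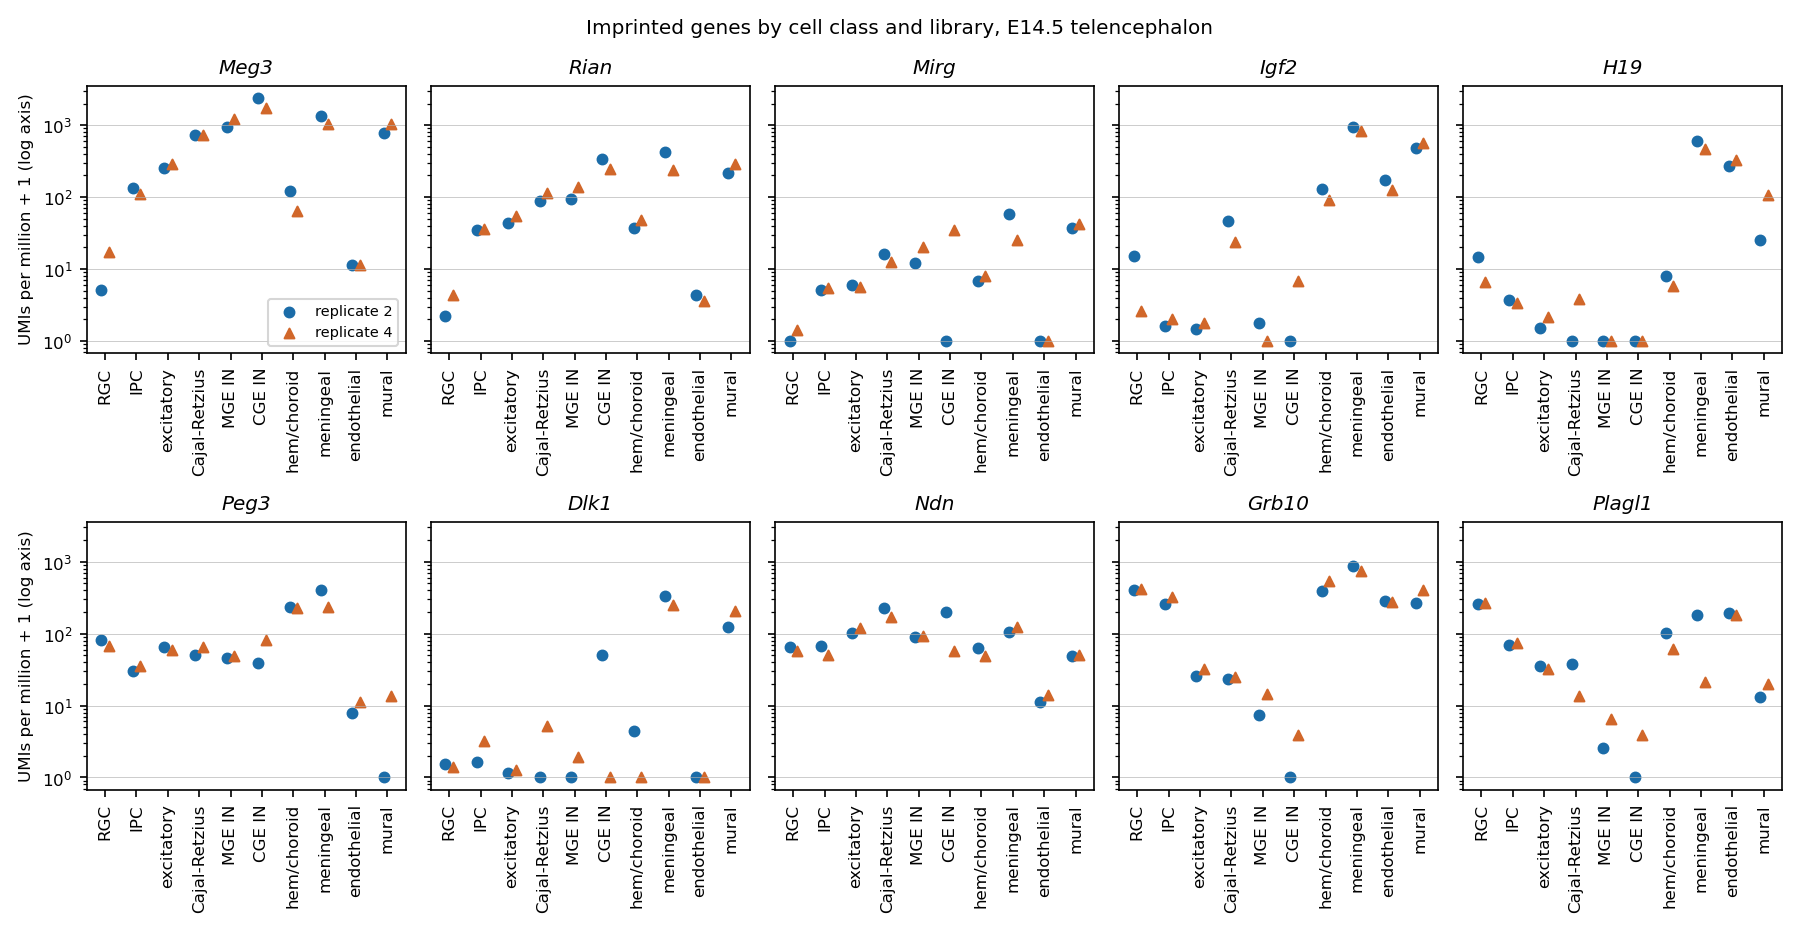
CPM + 1 (log axis) of each of the 10 imprinted genes by cell class, with 1 point for each of the 2 libraries (IN, interneuron). Meg3, Rian and Mirg sit low in RGC-like and endothelial-like cells and high in MGE interneuron-like and meningeal cells, whereas Grb10 and Plagl1 sit low in MGE interneuron-like cells; CGE interneuron-like cells of replicate 2 are 5 cells, where 0 UMIs allow up to 37.5 CPM.

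The 3 non-coding RNAs of the Dlk1-Dio3 domain were low in RGC-like cells and higher in IPC-like and excitatory neuron-like cells. Between IPC-like and excitatory neuron-like cells, Meg3 was called higher and Rian and Mirg were not called. Meg3, a maternally expressed RNA that stays largely in the nucleus, stood at 4.13 and 16.2 CPM in RGC-like cells, at 133 and 108 CPM in IPC-like cells and at 252 and 289 CPM in excitatory neuron-like cells. The classes did not overlap. The IPC-like level exceeded the RGC-like level by 3.62 ± 0.44 (edgeR adjusted p = 0.000107), and the excitatory level exceeded the IPC-like level by a further 1.29 ± 0.39 (edgeR adjusted p = 0.0243). That second step was not called when cells with at least 500 genes were admitted (0.96, edgeR adjusted p = 0.117).

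The RGC-like level of Meg3 differed between the libraries. It rested on 30 and 157 UMIs, of which the 5 highest cells held 15 and 67, and the levels without those cells were 2.12 and 9.43 CPM. In RGC-like cells 8.93% and 13.4% had a Meg3 UMI, at medians of 31164 and 25435 UMIs a cell. Endothelial-like cells, another class with almost none, had 22.2% (2 of 9) and 11.1% (2 of 18) at 16901 and 16685 UMIs, so the RGC-like share was below that of a class with 3 and 4 Meg3 UMIs in all in replicate 2, and just above it in replicate 4. In replicate 4, the 22 RGC-like cells with under 3% of their UMIs from ribosomal protein genes held 159.8 CPM of Meg3, against 13.1 CPM in the 278 cells with 9% or more. In IPC-like cells 46.8% and 42.8% had one. Thinned to 5000 UMIs a cell, the shares were 2.39% and 4.86% in RGC-like cells and 28.7% and 24.1% in IPC-like cells.

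Rian, which hosts small nucleolar RNAs, stood at 1.24 and 3.30 CPM in RGC-like cells (9 and 32 UMIs), at 34.3 and 34.8 CPM in IPC-like cells and at 43.2 and 54.1 CPM in excitatory neuron-like cells. The RGC-like values lay far below the others, with an IPC-like difference of 3.94 ± 0.38 (edgeR adjusted p = 1.98e-05). The further 0.62 ± 0.28 to excitatory neuron-like cells was not called (edgeR adjusted p = 0.106), though 7 of 14 alternatives called it, all as higher. Mirg, a host of microRNAs, had 0 and 4 UMIs in RGC-like cells, 20 and 26 in IPC-like cells (4.16 and 4.40 CPM) and 95 and 98 in excitatory neuron-like cells (4.92 and 4.57 CPM). The 0 allows up to 0.413 CPM. Mirg was 4.16 ± 0.68 higher in IPC-like than in RGC-like cells (edgeR adjusted p = 0.00074), a fitted value that rests on 4 UMIs in RGC-like cells. The excitatory values lay just above the IPC-like ones, a difference of 0.28 ± 0.41 that was not called (edgeR adjusted p = 0.651) and that depended on the setting: it was -0.76 after thinning (not called) and 1.32 at the finer clustering, Leiden resolution 2, where it was called (edgeR adjusted p = 0.0325).

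Over the whole lineage, excitatory neuron-like against RGC-like cells, the differences were 4.92 ± 0.46 for Meg3 (edgeR adjusted p = 4.32e-06), 4.56 ± 0.36 for Rian (1.19e-06) and 4.44 ± 0.62 for Mirg (9.35e-05). The RGC-like sums serve in each comparison against RGC-like cells, so these comparisons are not independent of one another. RNA make-up differed along the lineage too. The nuclear RNA Malat1 stood at 6706 and 6510 CPM in RGC-like cells and 15451 and 14439 CPM in excitatory neuron-like cells. Ribosomal protein genes took a median of 12.2% and 11.2% of UMIs against 7.81% and 6.71%. The part of RNA make-up in these differences was not tested.

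All 3 RNAs were higher again in MGE interneuron-like cells, the class that contains migrating somatostatin interneurons. Meg3 stood at 943 and 1227 CPM, Rian at 92.3 and 137 CPM and Mirg at 11.2 and 19.1 CPM (14 and 21 UMIs). Each lay above both excitatory values. The differences were 1.93 ± 0.39 for Meg3 (edgeR adjusted p = 0.00507), 1.16 ± 0.29 for Rian (0.0143) and 1.58 ± 0.45 for Mirg (0.0274). Of 14 alternatives, 4 lost the Mirg call, 1 lost the Rian call and none lost the Meg3 call. Meg3 was seen in 92.6% and 85.4% of MGE interneuron-like cells, against 54.7% and 50.6% of excitatory neuron-like cells, and after thinning in 88.7% and 81.1% against 32.1% and 34.5%.

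Depth and RNA make-up moved with that difference. MGE interneuron-like cells had medians of 23450.5 and 10737 UMIs against 33970 and 24514, and ribosomal protein genes took 4.15% and 1.46% of their UMIs against 7.81% and 6.71%. The nuclear RNA Malat1 stood at 20054 and 22039 CPM against 15451 and 14439 CPM. Among cells with under 3% ribosomal UMIs, Meg3 was 775 and 1182 CPM in MGE interneuron-like cells (23 and 56 cells) and 907 and 446 CPM in excitatory neuron-like cells (60 and 176 cells). In that stratum the MGE interneuron-like value was the lower in replicate 2 and the higher in replicate 4. Between 3% and 6% the MGE interneuron-like values, 928 and 1573 CPM, were above the excitatory values of 415 and 416 CPM in both libraries. The part of RNA make-up in the class difference was not tested.

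**Figure D2:**
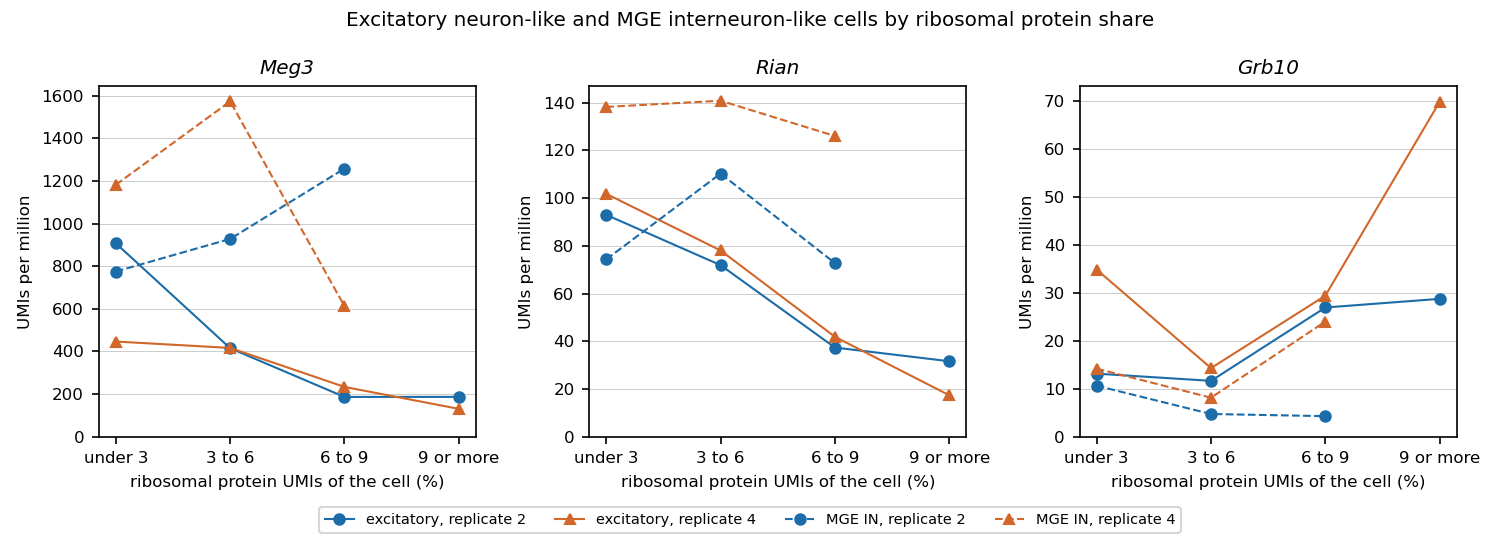
Meg3, Rian and Grb10 CPM by the share of a cell's UMIs from ribosomal protein genes, with 1 point per class, bin and library. Excitatory neuron-like and MGE interneuron-like cells of the 2 libraries are drawn. Excitatory neuron-like cells hold 907 and 446 CPM of Meg3 in the lowest bin and 187 and 131 CPM in the highest.

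Other classes held these RNAs too. Meg3 stood at 730.2 and 724 CPM in Cajal-Retzius-like cells, the early Reln-secreting neurons, and at 2374 and 1753 CPM in the interneuron-like cells of the caudal ganglionic eminence (CGE; 5 and 30 cells). It reached 1359 and 1045 CPM in meningeal fibroblast-like cells and 773 and 1044 CPM in mural-like cells. The meningeal values overlapped those of MGE interneuron-like cells. Endothelial-like cells were the exception among the non-neural classes, at 10.2 and 10.2 CPM of Meg3, 1 and 1 UMI of Rian and none of Mirg. Rian was 421 and 239 CPM and Mirg 58.0 and 23.9 CPM in meningeal fibroblast-like cells, above every neural class that entered the fit. The joined meningeal and vascular class exceeded RGC-like cells by 6.43 ± 0.49 for Meg3 (edgeR adjusted p = 2.04e-06), 6.70 ± 0.38 for Rian (2.57e-07) and 6.98 ± 0.60 for Mirg (4.6e-06).

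The excitatory neuron-like cells were not uniform. Their 6 clusters had been made without imprinted genes, and Meg3 ranged over them from 27.3 and 17.1 CPM to 1004 and 874 CPM. The top value belonged to the cluster led by Tafa1 and Slit3 (44 and 104 cells), followed by the cluster led by Hs3st4 and Rgs6 at 498 and 639 CPM (86 and 131 cells). The lowest belonged to the cluster led by Adamtsl3 and Unc5d (136 and 183 cells). The other 3 lay between 38.6 and 109.8 CPM. The Tafa1 and Hs3st4 clusters were thus the only 2 of the 6 above the IPC-like class in both libraries, whereas the other 4, which held most of the excitatory neuron-like cells, lay below its 133 CPM in replicate 2 and did not exceed 109.8 CPM, beside its 108 CPM, in replicate 4. The median ribosomal share was 5.32% in the Tafa1 cluster, 6.72% in the Hs3st4 cluster and 6.92% in the Adamtsl3 cluster. These are descriptions of clusters, with no test.

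**Figure D3:**
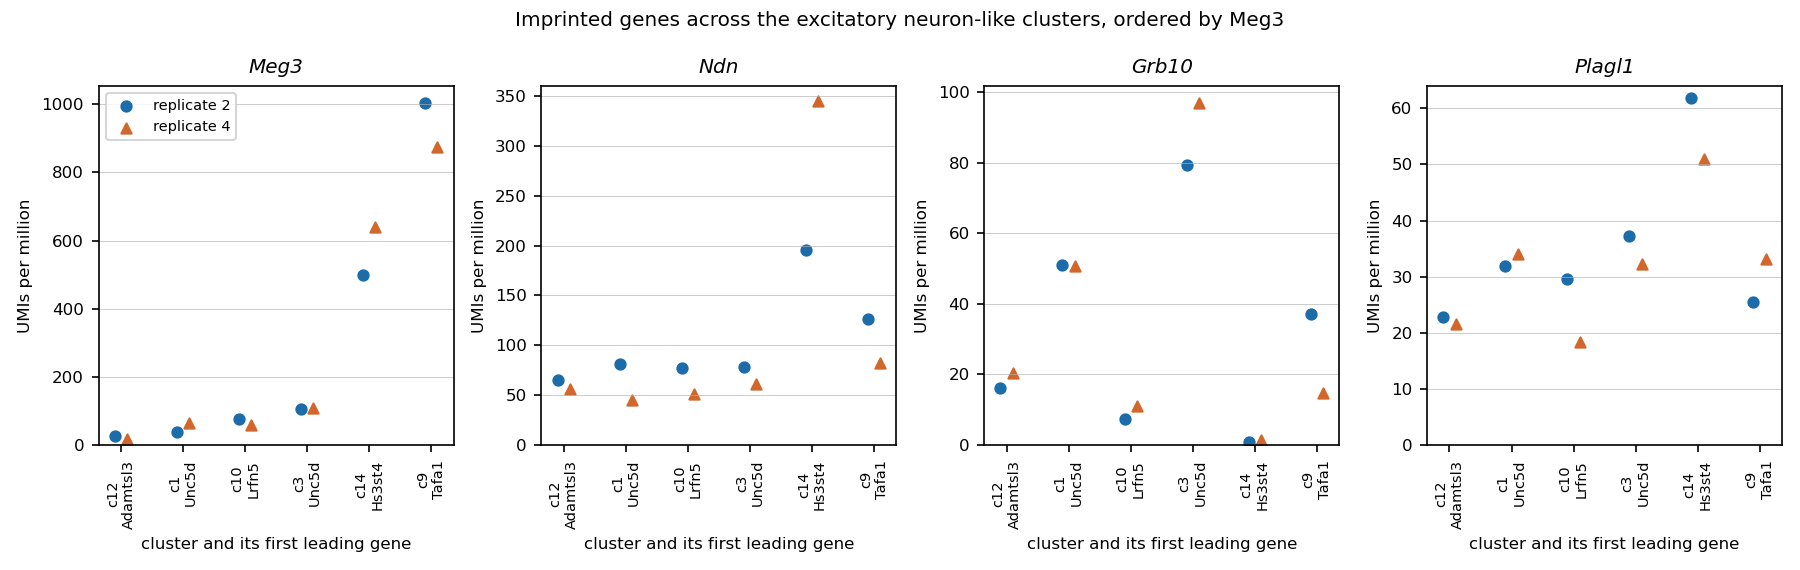
CPM of Meg3, Ndn, Grb10 and Plagl1 in the 6 clusters of excitatory neuron-like cells, named by leading genes, with 1 point per library. Meg3 is highest in the Tafa1 cluster (1004 and 874 CPM) and Ndn in the Hs3st4 cluster (195 and 345 CPM), where Grb10 is lowest (0.859 and 1.56 CPM).

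Among IPC-like cells, Meg3 stood at 187 and 194 CPM in the cluster led by Eomes and Kif26b, at 59.7 and 60.5 CPM in the dividing cluster led by Top2a, and at 65.8 and 37.5 CPM in the cluster led by Neurod1. Within MGE interneuron-like cells it was 1095 and 1704 CPM in the sub-cluster led by Sst and 638 and 586 CPM in the other, led by Nxph1.

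The balance of Rian to Meg3 was also read by class. For each 100 Meg3 UMIs there were 25.7 (95% interval 21.5 to 30.5) and 32.3 (27.5 to 37.9) Rian UMIs in IPC-like cells. There were 17.1 (15.9 to 18.4) and 18.7 (17.6 to 19.96) in excitatory neuron-like cells. MGE interneuron-like cells had 9.79 (8.01 to 11.9) and 11.2 (9.39 to 13.2). The order of these 3 classes was the same in both libraries. Meningeal fibroblast-like cells had 31.0 (27.5 to 34.9) and 22.9 (19.4 to 27.0), so the libraries of 1 class could differ by more than counting error, and the order is a description with no test. In IPC-like cells of replicate 2, 5 cells held 211 of the 642 Meg3 UMIs. The ratio is one of UMIs from 2 genes of unlike length and 3′ ends, so it gives no relative abundance of molecules.

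**Figure D4:**
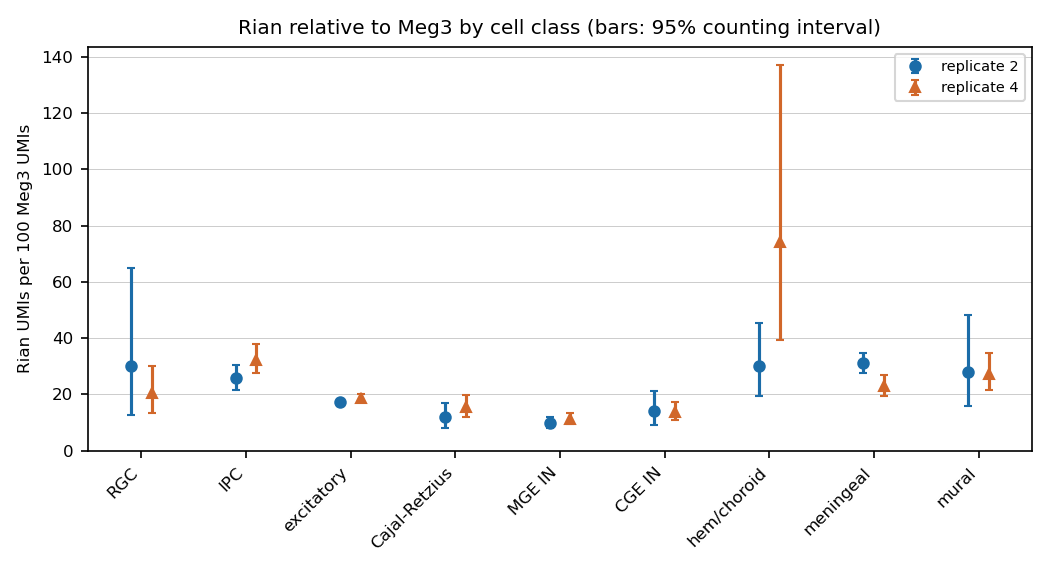
Rian UMIs per 100 Meg3 UMIs by cell class, with 1 point per library and bars for the 95% counting interval. The ratio is 25.7 and 32.3 in IPC-like cells and 9.79 and 11.2 in MGE interneuron-like cells.

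Igf2, H19 and Dlk1 were highest outside the neural lineage. Igf2, the fetal insulin-like growth factor, stood at 939 and 817 CPM in meningeal fibroblast-like cells, at 483 and 567 CPM in mural-like cells and at 174 and 125 CPM in endothelial-like cells. Hem or choroid plexus-like cells (18 and 9 cells) had 131 and 89.97 CPM. Excitatory neuron-like cells had 0.466 and 0.793 CPM (9 and 17 UMIs) and MGE interneuron-like cells 1 and 0 UMIs. Cajal-Retzius-like cells stood above these neurons at 44.9 and 22.7 CPM, from 18 and 16 UMIs in 5 and 3 cells, and the meningeal markers summed to 145 and 94.9 CPM in them; the part of those markers was not tested. In the joined meningeal and vascular class Igf2 stood at 730 and 578 CPM, 6.48 ± 0.60 above RGC-like cells (edgeR adjusted p = 8.58e-06).

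RGC-like cells held few Igf2 UMIs, and in replicate 2 a handful of cells carried them. The level was 14.1 and 1.65 CPM (102 and 16 UMIs). In replicate 2, 65 of the 102 UMIs lay in 1 cell and 101 in 5 cells, without which the level was 0.139 CPM. The fitted value of excitatory neuron-like minus IPC-like cells was -0.26 ± 1.37 (edgeR adjusted p = 0.91), and that of MGE interneuron-like minus excitatory neuron-like cells -0.63 (0.92). The fit called Igf2 lower in IPC-like than in RGC-like cells (-3.02 ± 1.02, edgeR adjusted p = 0.0392) and lower in excitatory neuron-like than in RGC-like cells (-3.28 ± 0.78, edgeR adjusted p = 0.00381). The replicate 2 value behind both calls rests on those 5 cells. Of 14 alternatives, 8 lost or reversed the IPC-like call and 7 the excitatory call, most of them changes in which cells entered the classes. The 12 meningeal markers summed to 6.75 and 11.5 CPM in RGC-like cells, and their part in the Igf2 value was not tested.

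H19, the non-coding RNA expressed from the maternal copy beside Igf2, stood at 599 and 467 CPM in meningeal fibroblast-like cells, 272 and 322 CPM in endothelial-like cells and 24.2 and 107 CPM in mural-like cells. A few cells held much of it: 5 cells held 349 of 526 and 285 of 351 UMIs of the meningeal cells, leaving 305 and 117 CPM without them, and in replicate 2 all 80 endothelial-like UMIs were in 4 of 9 cells. RGC-like cells had 13.8 and 5.67 CPM (100 and 55 UMIs), in 22.3% and 9.92% of cells, with at most 20 and 6 UMIs in 1 cell. The shares in excitatory neuron-like cells, at medians of 33970 and 24514 UMIs, were 1.63% and 1.53%. After thinning to 5000 UMIs the RGC-like shares were 6.70% and 1.71% against 0% and 0.122%.

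The H19 level was lower in the later cells of the lineage, at 2.70 and 2.37 CPM in IPC-like cells (13 and 14 UMIs) and 0.518 and 1.12 CPM in excitatory neuron-like cells. The classes did not overlap. IPC-like cells were 1.81 lower than RGC-like cells on the log2 scale (-1.81 ± 0.51, edgeR adjusted p = 0.0197), a call lost in 2 of 14 alternatives, and excitatory neuron-like cells were lower than RGC-like cells by more (-3.26 ± 0.47, edgeR adjusted p = 0.000185). The step between IPC-like and excitatory neuron-like cells was not called (-1.45 ± 0.65, edgeR adjusted p = 0.113), and 2 of 14 alternatives called it. MGE interneuron-like cells had 0 UMIs in both libraries, which allows up to 2.41 and 2.73 CPM, so at this depth they cannot be told from excitatory neuron-like cells. The meningeal and vascular class was 5.47 ± 0.37 above RGC-like cells (edgeR adjusted p = 1.96e-06).

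Dlk1, a paternally expressed transmembrane protein related to Notch ligands, had 335 and 251 CPM in meningeal fibroblast-like cells (294 and 189 UMIs) and 121 and 207 CPM in mural-like cells (10 UMIs in 1 of 3 cells, and 66 in 7 of 9). In replicate 2, 101 of the 294 UMIs were in 1 cell, and 11 of the 20 cells had any. Endothelial-like cells had none. RGC-like cells had 4 and 4 UMIs, IPC-like cells 3 and 13, excitatory neuron-like cells 3 and 6, and MGE interneuron-like cells 0 and 1. Against RGC-like cells the meningeal and vascular class was higher by 8.74 ± 0.40 (edgeR adjusted p = 7.63e-08). Among the neural classes Dlk1 entered the fit only because it was high in the meningeal and vascular class, and it did not pass the filter when only the compared classes were fitted. The fitted values were 1.69 ± 0.71 for IPC-like against RGC-like cells (edgeR adjusted p = 0.0891), -0.83 ± 0.80 for excitatory neuron-like against RGC-like cells (0.405) and 0.82 for MGE interneuron-like relative to excitatory neuron-like cells (0.803). Excitatory neuron-like cells were called lower than IPC-like cells (-2.52 ± 0.69, edgeR adjusted p = 0.015), a call on few UMIs that was lost in 4 of 13 alternatives and on which nothing is rested here. Dlk1 and Meg3, neighbours that are expressed from opposite parental copies, were both high in meningeal and mural-like cells, while in excitatory neuron-like and MGE interneuron-like cells Meg3 was high and Dlk1 near 0. Striatal projection neuron-like cells of replicate 4 held 29 UMIs (28.3 CPM) in 10 of 65 cells, of which 14 were in 1 cell and 24 in 5 cells (5.66 CPM without those 5); replicate 2 had 1 such cell, with 0 UMIs. The CGE interneuron-like cells had 4 UMIs in 5 cells of replicate 2 and 0 in replicate 4.

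Grb10 and Plagl1 were higher in RGC-like cells than in excitatory and MGE interneuron-like cells. Grb10, an adaptor that damps insulin and IGF receptor signalling, stood at 402 and 419 CPM in RGC-like cells, 256 and 317 CPM in IPC-like cells, 24.7 and 31.5 CPM in excitatory neuron-like cells and 6.42 and 13.6 CPM in MGE interneuron-like cells (8 and 15 UMIs). None of these classes overlapped. The step from RGC-like to IPC-like cells was not called (-0.43 ± 0.20, edgeR adjusted p = 0.117), though 6 of 14 alternatives called it lower. The step from IPC-like to excitatory neuron-like cells was (-3.22 ± 0.21, edgeR adjusted p = 1.5e-06), and the difference over the whole lineage was -3.64 ± 0.22 (edgeR adjusted p = 1.45e-07). A UMI of Grb10 was seen in 88.4% and 93.6% of RGC-like cells and in 28.4% and 30.3% of excitatory neuron-like cells.

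The MGE interneuron-like level of Grb10 was lower still than the excitatory level (-1.59 ± 0.30, edgeR adjusted p = 0.00339), a call lost in 5 of 14 alternatives with an adjusted p of up to 0.210. Within the excitatory lineage Grb10 graded over clusters. It was 328 and 369.5 CPM in the Eomes cluster of IPC-like cells, 137 and 163 CPM in their Neurod1 cluster, and 79.3 and 96.9 CPM in the excitatory cluster led by Unc5d and Neurod1. It was 0.859 and 1.56 CPM in the Hs3st4 cluster, the lowest of the 6. Outside the lineage it stood at 875 and 748 CPM in meningeal fibroblast-like cells and 283 and 276 CPM in endothelial-like cells, and the joined class exceeded RGC-like cells by 0.62 ± 0.20 (edgeR adjusted p = 0.0233), a call lost in 3 of 15 alternatives.

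Plagl1, a zinc finger transcription factor also known as Zac1, stood at 259 and 263 CPM in RGC-like cells, 68.4 and 72.9 CPM in IPC-like cells, 34.7 and 31.6 CPM in excitatory neuron-like cells and 1.61 and 5.45 CPM in MGE interneuron-like cells (2 and 6 UMIs). The classes did not overlap. The libraries lay close together in the first 3 classes, whereas the MGE interneuron-like values differed between them and rest on few UMIs. The first step was -1.79 ± 0.32 (edgeR adjusted p = 0.00149). The second, -0.96 ± 0.32 (edgeR adjusted p = 0.0393), was lost in 7 of 14 alternatives, and the difference over the whole lineage was -2.76 ± 0.33 (edgeR adjusted p = 2.97e-05). MGE interneuron-like cells were lower than excitatory neuron-like cells (-3.34 ± 0.68, edgeR adjusted p = 0.00488).

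The MGE interneuron-like value of Plagl1 depended on which cells were counted. A sub-cluster of 22 cells, all of replicate 4, was led by Sst and raised equal shares of MGE and CGE markers, so it had no sub-class name, and it held 165 CPM of Plagl1 and 2974 CPM of Meg3. Counted as MGE interneuron-like, it took the Plagl1 difference to -0.65 (edgeR adjusted p = 0.562). The call was also lost with count splitting, where one part of each cell's UMIs made the classes and the other was tested (-0.47, edgeR adjusted p = 0.657) and with cells of at least 500 genes (-0.55, edgeR adjusted p = 0.674), and so in 3 of 14 alternatives. Among non-neural cells, Plagl1 was 191 and 182 CPM in endothelial-like cells. In meningeal fibroblast-like cells it was 181 and 19.9 CPM, where replicate 2 had 62 of 159 UMIs in 1 cell, so these values gave no common level. The joined class was called lower than RGC-like cells (-1.15 ± 0.34, edgeR adjusted p = 0.0154), a call lost in 6 of 15 alternatives.

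Peg3 and Ndn varied least among the 4 neural classes compared. Peg3, a paternally expressed zinc finger protein, stood at 81.0 and 66.8 CPM in RGC-like cells, 29.3 and 34.2 CPM in IPC-like cells, 64.5 and 57.7 CPM in excitatory neuron-like cells and 44.2 and 47.3 CPM in MGE interneuron-like cells. IPC-like cells held the low point. They were lower than RGC-like cells (-1.12 ± 0.28, edgeR adjusted p = 0.0101), and excitatory neuron-like cells were higher than IPC-like cells (1.07 ± 0.28, edgeR adjusted p = 0.012). Excitatory neuron-like and RGC-like cells differed by -0.05 ± 0.26 (edgeR adjusted p = 0.883), and MGE interneuron-like and excitatory neuron-like cells by -0.49 ± 0.32 (edgeR adjusted p = 0.325). Hem or choroid plexus-like cells had 237 and 223 CPM and meningeal fibroblast-like cells 406 and 231 CPM. In the hem or choroid plexus-like cells, 5 cells held 160 of 203 and 88 of 94 Peg3 UMIs. Without those cells the levels were 116 and 52.2 CPM. Endothelial-like cells (6.81 and 10.2 CPM) and mural-like cells (0 and 12.5 CPM, 0 and 4 UMIs) stood below RGC-like cells. The joined class exceeded RGC-like cells by 1.48 ± 0.28 (edgeR adjusted p = 0.00123), and 357 of its 359 and 174 of its 182 Peg3 UMIs were in the meningeal cells.

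Ndn encodes necdin, a MAGE family protein of postmitotic neurons that is paternally expressed. It stood at 63.3 and 55.8 CPM in RGC-like cells, 66.5 and 48.7 CPM in IPC-like cells, 102 and 119.5 CPM in excitatory neuron-like cells and 89.9 and 90.9 CPM in MGE interneuron-like cells. The progenitor classes overlapped and both lay below the neurons. Excitatory neuron-like cells were above RGC-like cells by 1.12 ± 0.16 (edgeR adjusted p = 0.000129), and above IPC-like cells by 1.07 ± 0.16 (0.000418), with no called step from RGC-like to IPC-like cells (0.04 ± 0.17, edgeR adjusted p = 0.879). Cajal-Retzius-like cells had 229 and 171 CPM. Among the excitatory clusters the Hs3st4 cluster stood apart, at 195 and 345 CPM, with the other 5 between 45.6 and 126 CPM. MGE interneuron-like cells differed from excitatory neuron-like cells by -0.37 ± 0.18 (edgeR adjusted p = 0.178), and the meningeal and vascular class from RGC-like cells by 0.40 ± 0.18 (edgeR adjusted p = 0.0887).

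**Figure D5:**
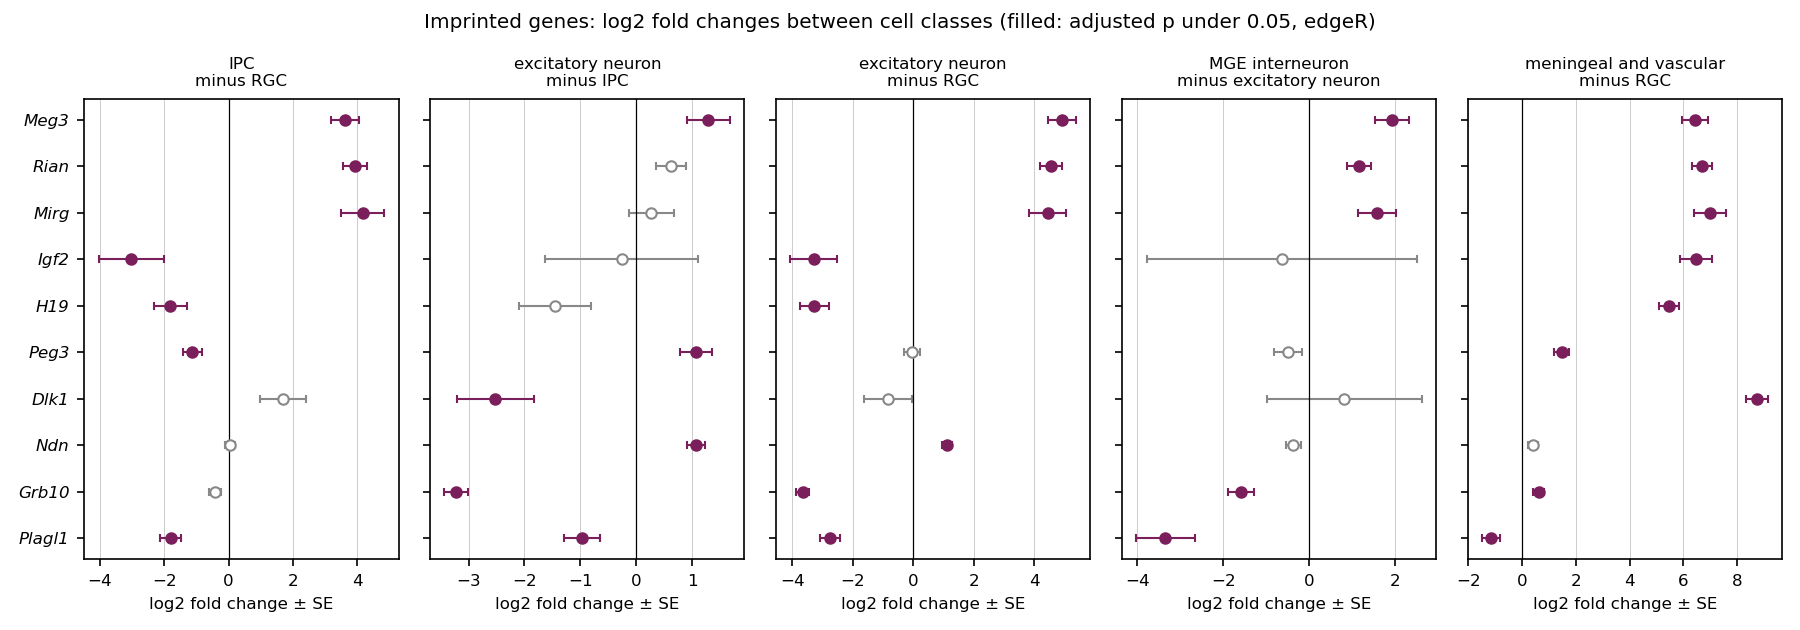
Log2 fold changes of the 10 genes in the 5 comparisons, with bars for 1 standard error, filled where edgeR called the gene and open where it did not; comparisons with 0 UMIs in a class, such as H19 in MGE interneuron-like cells, are left out. Meg3, Rian and Mirg lie to the right in all panels (after thinning, Mirg turned in excitatory neuron-like against IPC-like cells), and Grb10 lies to the left in every panel but that of the meningeal and vascular class.

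Counted together, 3 of the 10 genes were called higher in IPC-like than in RGC-like cells and 4 lower, where 17.3% of the genes tested were called higher and 17.3% lower. In excitatory neuron-like against IPC-like cells it was 3 higher and 3 lower, against 17.9% and 16.8% of all genes. Against RGC-like cells it was 4 higher and 4 lower, with 28.9% and 27.1% of all genes. In MGE interneuron-like relative to excitatory neuron-like cells 3 were higher and 2 lower, where 7.86% and 12.9% of all genes were. In the meningeal and vascular class 8 were higher than in RGC-like cells and 1, Plagl1, was lower, where 26.0% and 21.4% of all genes were.

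The median log2 fold change of the 10 genes was -0.19, 0.01, -0.44 and -0.43 in the first 4 of these comparisons, against 0.00, 0.00, 0.03 and -0.09 over all genes tested. It was 5.95 in the meningeal and vascular class against 0.03. All 10 passed the filter on low counts in the fit of all classes. When only the compared classes were fitted, Dlk1 did not pass in the 4 comparisons among neural classes, Igf2 in 2 of them and H19 in 1, so the counts above are no support for a difference of the group.

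A list of 41 further imprinted genes, 33 of which were tested, showed how the rest of this group was placed. In IPC-like against RGC-like cells 10 were higher, 4 lower and 19 not called, where 17.3% of all genes tested were higher and 17.3% lower. These counts, and those below, describe the list and are not set apart from the other genes by any test. Cdkn1c, an inhibitor of cyclin-dependent kinases, was at 223 and 309.7 CPM in IPC-like cells and 6.06 and 5.47 CPM in RGC-like cells (5.62 ± 0.44, edgeR adjusted p = 4.41e-06). Peg13 was higher by 1.68 (lost in 1 of 14 alternatives) and Snrpn, a splicing protein gene whose reads can be shared with Snurf, by 1.43. Mest was lower (-2.12), as were Peg10 (-2.06), whose start is next to Sgce, and the lipid flippase gene Atp10a (-2.02). The Peg10 call was lost in 3 of 14 alternatives.

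In excitatory neuron-like against IPC-like cells 10 were higher, 4 lower and 19 not called (17.9% and 16.8% of all genes). Rasgrf1, an exchange factor for Ras, had 195 and 170 UMIs against 0 and 1, Zim1 had 30 and 40 against 0 and 0, and Nap1l5 was higher by 3.56. Peg12 (-2.97), Atp10a (-1.43) and Commd1 (-0.79) were lower, but Atp10a lost its call in 4 of 14 alternatives and came as near to 0 as -0.066. In excitatory neuron-like against RGC-like cells 17 were higher, 8 lower and 8 not called, where 28.9% of all genes were higher and 27.1% lower, so the lower count is near the background. Rtl1, which lies in the same domain as Meg3 and Dlk1, had 19 and 36 UMIs in excitatory neuron-like cells and none in RGC-like cells, and Cdkn1c was higher by 4.80. Peg12 was lower (-4.38), with Ddc (-3.84) and Atp10a (-3.45).

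In MGE interneuron-like relative to excitatory neuron-like cells 3 were higher and 5 lower, with 25 not called. Over all genes tested 7.86% were higher and 12.9% lower, so these counts are near the background. Nnat, which encodes the small membrane protein neuronatin, stood at 2395 and 2166 CPM against 1288 and 1326 CPM (0.73 ± 0.17, edgeR adjusted p = 0.00929), and Blcap, in whose intron Nnat lies, was higher by 0.76. Ddc was called on 1 and 2 UMIs in each class, a call that was lost in 6 of 11 alternatives (edgeR adjusted p up to 0.114, and 0.0654 with the library as a block). Rasgrf1 (-4.41), Zdbf2 (-2.67) and Airn (-1.52), whose gene overlaps Igf2r, were lower. Of 14 alternatives Zdbf2 turned in 3, Nnat lost its call in 3 and Blcap and Airn in 2 each; Rasgrf1 lost its call in 2 of 12.

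In the meningeal and vascular class 16 were higher than in RGC-like cells, 6 lower and 11 not called (26.0% and 21.4% of all genes). Dcn (decorin), a collagen-binding protein of connective tissue and also a leading gene of the meningeal cluster, was at 908 and 1002 CPM against 1.10 and 1.65 CPM. Cdkn1c was at 2055 and 741 CPM (7.93) and Rtl1 had 7 and 12 UMIs against none. Mkrn3 (-2.40), Peg12 (-2.15) and Zdbf2 (-1.71) were lower, calls lost in 1 of 13, 1 of 15 and 2 of 15 alternatives. The median of the 33 genes was 0.25, 0.27, 0.61, 0.02 and 0.57 in the 5 comparisons.

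Because Igf2 and Grb10 act on IGF signalling, 20 genes of that pathway were also followed, of which 17 were tested. In IPC-like against RGC-like cells 3 were higher and 5 lower (17.3% and 17.3% of all genes). Igfbp2, a secreted IGF-binding protein, was at 161 and 204 CPM against 99.5 and 104 CPM (0.94), and Grb14, the relative of Grb10, was higher by 2.27. The Igfbp2 call was lost in 4 of 14 alternatives, and Grb14 lost its call in 1 and turned in another. Pappa, a protease that frees IGF from its binding proteins, was lower (-5.18, 2 and 1 UMIs against 68 and 134), as was Igfbp5 (-2.57). Pappa2 (2.26) and the ligand Igf1 (-3.71, 1 and 1 UMIs against 11 and 39) were called too, but both turned in direction under other choices of cells.

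In excitatory neuron-like against IPC-like cells 4 pathway genes were higher and 2 lower (17.9% and 16.8% of all genes). Igfbp3 had 257 and 185 UMIs against 0 and 4, Grb14 was higher by 2.16 and Pappa2 by 1.78, while the receptor substrate gene Irs1 (-1.10) and Igf2bp1 (-0.90), which encodes a protein that binds Igf2 mRNA, were lower. Against RGC-like cells 5 were higher and 7 lower (28.9% and 27.1% of all genes). Grb14 stood at 19.7 and 24.5 CPM in excitatory neuron-like cells and at 0.965 and 1.34 CPM in RGC-like cells (4.43 ± 0.49, edgeR adjusted p = 1.57e-05), the opposite direction to Grb10.

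MGE interneuron-like cells had 2 pathway genes higher and 7 lower than excitatory neuron-like cells (7.86% and 12.9% of all genes). Igfbp4 was at 83.5 and 89.96 CPM against 8.97 and 10.6 CPM (3.07 ± 0.18, edgeR adjusted p = 7.13e-07), and Igf1 had 9 and 11 UMIs against 3 and 6 in the far larger excitatory sums, a call lost in 2 of 14 alternatives. Grb14 (2 and 0 UMIs), Pappa2 (4 and 0 UMIs) and Irs1 (-2.26) were lower. In the meningeal and vascular class 7 were higher than in RGC-like cells and 5 lower (26.0% and 21.4% of all genes), led by Igfbp7 at 317 and 698 CPM (7.49), Igfbp3 (6.17) and Igf1 at 121 and 29.4 CPM (4.70). Igf2bp2 (-1.05), Irs2 (-1.03) and Igf2bp1 (-0.91) were lower. Of 15 alternatives, Irs2 lost its call in 7 and turned in 1, and Igf2bp2 lost its call in 3. The pathway medians were 0.06, -0.06, -0.30, -0.66 and 0.37.

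Which genes had a profile most like each imprinted gene was read from log2(CPM + 10) over 10 classes, those of 3 or more cells per library, among 10363 genes. This is a description over classes that share libraries, with no test. Meg3 and Rian were close (r = 0.957 and 0.963), Rian was first among the profiles like Meg3, ahead of Dact1, and B830012L14Rik was first among those like Rian (r = 0.965 and 0.965). Mirg and Meg3 had r = 0.571 and 0.902, and the genes nearest to Mirg were Parp8, Glipr2 and Gatd1. In replicate 2 the class highest in Meg3, CGE interneuron-like cells at 2374 CPM, was 5 cells with 0 Mirg UMIs. That 0 allows up to 37.5 CPM, so the lower r and the ranking include a class at the floor.

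The genes nearest to Igf2 were S100a11, Ahnak and Anxa2 (r from 0.948 to 0.973), and those nearest to Dlk1 were Plat, Twist1 and Col3a1, genes that connective tissue expresses. H19 was nearest to Tril, Tec and Jcad. Igf2 and H19 had r = 0.778 and 0.860. Grb10 was nearest to Idh2, Rcn1 and Nek7 and Plagl1 to Spata13, Tspan18 and Ptp4a2, and the 2 had r = 0.820 and 0.639 with each other. Meg3 and Plagl1 ran opposite (r = -0.731 and -0.966). Of the 10 genes, Peg3 had the lowest r with its first match, Slc38a6 (r = 0.847 and 0.844). Ndn was nearest to Glrb (r = 0.872 and 0.883), a glycine receptor subunit of neurons.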

How the data were processed

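The data are single-cell 3′ RNA-seq of 2 libraries. The authors deposited raw UMI counts per gene and barcode, with no normalization; per the labels they were made with Cell Ranger 7.0.0 on mm10. Whether intronic reads were counted, and the annotation release, are not given in the sources used here, and reads of overlapping genes may be split or lost. No column was left unmapped to a sample.

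From the counts, barcodes were kept with 1000 or more genes and a mitochondrial share of up to 10%, and Scrublet doublets (12 and 48, 0.991% and 2.44%) were removed. Cells were clustered with scanpy 1.11.5 (Python 3.11.15; 2000 variable genes without 51 imprinted genes, 30 components, 20 neighbours, Leiden resolution 1; 23 clusters, and 8 sub-clusters of GABAergic cells with 15 neighbours). A cluster took the class with the largest share of markers raised (log2 difference of at least 1 with 10 CPM added, in at least 25% of cells), if these were at least 3. It stayed unnamed where its 10 leading genes held more markers of another class, where shares tied, or where it was far shallower than its libraries' median and led by no marker of the class or by more hemoglobin genes. The classes are rebuilt and not the authors' own.

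Counts were summed per class and library where both libraries had 10 or more cells (12 sums, 14482 genes) and tested in edgeR 4.0.16 (R 4.3.3; filterByExpr, TMM, quasi-likelihood, class only). Intervals are exact Poisson, and for ratios of counts exact binomial; where a count was 0, the limit given is 3 counts. CPM, shares and thinning to 5000 UMIs (66 and 125 shallower cells left out) were computed from the same counts. The script was tested on simulated counts.

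All 10 genes are described whatever their result. From the other lists, the 3 called genes that moved most in each direction, with the same direction in each library, are named. For likeness, the 3 genes with the highest r in the lower library are, among genes with a mean of at least 10 CPM. Each class takes 1 sum from each library, so the sums are paired by library; deviations from the class means correlated with a median r of 0.0943 (0.00326 to 0.252) over 15 pairs of classes. Alternatives were the library as a block, DESeq2 1.42.0 (test and size factors), no filter, only the compared classes, count splitting (0.5), thinning, at least 500 genes, at most 5% mitochondrial UMIs, doublets kept, Leiden resolutions 0.5 and 2, and imprinted genes in the clustering. Counting a mixed sub-cluster as MGE interneuron-like, and meningeal cells alone, were added after seeing the data. The genes and lists were chosen with earlier results of these data known.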

Additional observations from a re-analysis of the deposited data

Results flagged for a closer look

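Among barcodes left out for having under 1000 genes and not led by hemoglobin (385 and 356 barcodes in replicates 2 and 4, median mitochondrial share 15.4% and 27.1%), 3 of the imprinted genes stood above their level in kept cells in both libraries. Igf2 stood at 80.4 and 113 CPM, against 30.9 and 20.8 CPM in kept cells. H19 was at 35.2 and 125 CPM there, against 19.98 and 14.0 CPM. Ndn was at 126 and 101 CPM, against 87.3 and 89.3 CPM. The values of the left-out barcodes rest on 32 and 38 UMIs of Igf2, 14 and 42 of H19 and 50 and 34 of Ndn. Whether they exceed counting error was not tested. These barcodes entered no comparison.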

How the results depend on the processing

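Of 703 values of the 10 genes under the alternatives, 615 kept their direction and side of the threshold, 41 lost a call, 21 gained one and 26 turned; of 798 values of the other named genes, 731 held, 52 lost a call and 15 turned. The cause was not tested except where fewer cells or genes entered. Thinning, which drops counts and genes, gave 2976 genes called in place of 5000 (IPC-like against RGC-like), 3066 in place of 5037 (excitatory neuron-like against IPC-like), 1897 in place of 3002 (MGE interneuron-like relative to excitatory neuron-like) and 3278 in place of 6867 (meningeal and vascular against RGC-like). In MGE interneuron-like relative to excitatory neuron-like cells, 3 of the 10 genes in place of 5 were called with thinning, count splitting, at least 500 genes, resolution 2 or imprinted genes in the clustering, and DESeq2 called 1608 of 3302 genes higher (48.7%) in place of 1139 of 3002 (37.9%). The median of all genes moved by -0.10 with DESeq2 in excitatory neuron-like against RGC-like cells, and by 0.10 with DESeq2 and -0.19 without the filter in MGE interneuron-like relative to excitatory neuron-like cells. The library as a replicate block took Ddc to 3.73 (edgeR adjusted p = 0.0654) and changed no other call of the genes named.

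These log2 fold changes turned. In IPC-like against RGC-like cells, Igf2 (-3.02) became 0.23 with at least 500 genes, 0.26 with doublets kept, 0.26 at resolution 0.5 and 3.67 at resolution 2 (edgeR adjusted p = 0.00958). Ndn (0.04) became -0.050 with DESeq2 size factors or test, -0.038 with splitting, -0.056 with the 5% mitochondrial limit, -0.065 with doublets kept and -0.011 at resolution 0.5. Pappa2 (2.26) became -0.47 with splitting, -0.28 with doublets kept, -3.04 at resolution 0.5 and -0.28 at resolution 2, Igf1 (-3.71) became 0.082 at resolution 2, and Grb14 (2.27) -0.33 with imprinted genes in the clustering.

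In excitatory neuron-like against IPC-like cells, Mirg (0.28) became -0.76 with thinning, and Igf2 (-0.26) became 0.75 with splitting, 0.033 with 500 genes and 0.21 with the 5% mitochondrial limit. Against RGC-like cells, Igf2 (-3.28) became 0.32 with splitting, 0.26 with 500 genes, 0.011 with the 5% mitochondrial limit, 0.16 with doublets kept, 0.014 at resolution 0.5 and 0.59 at resolution 2. Igf1 (-3.37) became 1.64, 1.12, 1.11, 1.24 and 1.47 with splitting, at least 500 genes, doublets kept and resolutions 0.5 and 2. Peg3 (-0.05) became 0.11 with the 5% mitochondrial limit and 0.059 with imprinted genes in the clustering, and Dlk1 (-0.83) 0.69 with splitting.

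In MGE interneuron-like relative to excitatory neuron-like cells, splitting turned Igf2 (-0.63) to 0.056, Ndn (-0.37) to 0.039 and Zdbf2 (-2.67) to 0.29. Zdbf2 became 0.074 with at least 500 genes and 0.15 with the mixed sub-cluster counted, which took Peg3 (-0.49) to 0.0050. Irs2 (-1.03) in the meningeal and vascular class became 0.14 with thinning.

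Leaving out 1 library leaves no residual spread, so it gave values with no test. Of 100 such values of the 10 genes, 88 moved by less than their spread. That spread comes from the values of the same libraries, so most moves fall within it however far apart the libraries are. The count of 88 is therefore no measure of how stable the values are. Depth limits Dlk1, Igf2 and H19 in excitatory neuron-like cells, and these with Plagl1, Grb10 and Mirg in MGE interneuron-like cells, all at most 24 UMIs a library.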

Other observations

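A cluster of 34 and 18 cells, led by hemoglobin and neuron genes (Stmn2, Ina, Neurod6) together, held little Meg3 beside much Ndn. It was left unnamed because it was shallow and more hemoglobin genes than class markers led it. At its median of 3855 UMIs a cell, a low CPM rests on few UMIs. Its Meg3 level was 11.3 and 0 CPM, against 252 and 289 CPM in excitatory neuron-like cells. Its Ndn level was 298 and 233 CPM, against 102 and 119.5 CPM, and its median ribosomal share was 18.4%. The dividing sub-cluster of GABAergic cells led by Top2a and Ccnd2 (6 and 40 cells) held 304.5 and 368 CPM of Grb10 and 59.7 and 26.7 CPM of H19, whereas MGE interneuron-like cells held 6.42 and 13.6 CPM of Grb10 and no H19 UMI. All GABAergic cells without a sub-class, the dividing sub-cluster among them, held 10 and 22 H19 UMIs in 3 and 12 cells. In replicate 4, 5 cells held 15 of the 22, so the H19 levels rest on few cells. The levels above are values of clusters, given with no test.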
